A study of Mus musculus with 53 samples.

Results

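Lung tumours of p53-deficient mice were compared between 9 and 15 weeks of growth, for tumours started by an inert vector and for tumours started by a vector against Setd2. The tumours were chosen by genotype label, weeks of growth and target label, and not by size. They number 100561 of the 409584 tumours listed for the series and come from 18 of its 53 mice. Among Inert tumours of at least 1500 cells, the upper tail reached larger sizes at 15 weeks than at 9 weeks. Their median sizes differed by less than the standard error. With a minimum of 5000 cells the Inert median was higher at 15 weeks by log2 0.45. At the minimum of 1500 cells, 4 of 6 Inert measures passed the test as higher at 15 weeks. None of these 4 passed with any 1 of the 3 Inert mice at 9 weeks left out, or with every listed tumour kept. For Setd2 tumours no measure of size passed the test between the times.

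The mice carried the genotype KPTC. By the usual naming of such strains, P is an allele that lets Cre delete p53, T a fluorescent reporter gene and C an allele for Cas9, and all groups share them. Lentivirus carrying Cre, an sgRNA and a random barcode started the tumours, and the barcodes were later amplified from DNA of whole lungs and sequenced. At 15 weeks, 12 mice had received Lenti-sgTS/Pool, a mixture of vectors, and held 39164 Inert and 8088 Setd2 tumours side by side. At 9 weeks, 3 mice labelled KPTC-Neo had received only Lenti-sgNeo, an inert vector (8970 tumours). At the same time 3 mice labelled KPTC-Setd2 had received only Lenti-sgSetd2#2 (44339 tumours). Time therefore cannot be told apart from delivery as a single vector or as a pool. The table merges all inert sgRNAs of the pool under 1 label. The labels do not say whether the pool held the same Setd2 sgRNA, nor do they give the dose of virus or the age and sex of the mice.

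p53 is a transcription factor that halts or kills cells under stress such as DNA damage or strong oncogene signalling, and its loss is common in lung adenocarcinoma. Setd2 is a histone methyltransferase that marks the bodies of transcribed genes, and its loss is also found in these tumours. Lesions that start at the same time in the same lung can reach very different sizes, so a set of tumours is described by its percentiles as well as by its typical size.

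Each tumour is known by the barcode it carries. The barcodes are 21 bases long and most share A at positions 1 and 2, T at 8 and 9, and A at 15 and 16, counted from the first listed base. Among the tumours of at least 1500 cells, which are those compared here, 92.5% of the Inert and 90.9% of the Setd2 barcodes at 15 weeks held all of these fixed bases. At 9 weeks the shares were 90.3% and 90.6%. The barcodes of the largest tumour of each group follow, since these tumours set the top of each size range, with matching fixed bases in capitals.
Inert, 9 weeks: AAttttgTgtcaatcgaaatg
Inert, 15 weeks: AAcgtgaTTgtccaAAaagac
Setd2, 9 weeks: AAtctacTggtgtaAtggaga
Setd2, 15 weeks: AAgtagtgTttgggAAaccac
These tumours had 1784540, 13548800, 4529670 and 4656350 cells, in the order of the lines. The Inert one at 15 weeks kept the whole pattern and the other 3 did not. Each barcode was also listed under the same target in other mice, at no more than 41203, 19828, 43326 and 41676 cells.

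The listed sizes are numbers of cells as the authors computed them, and their precision differed between mice. At the low end of each mouse the sizes lay in evenly spaced bands, with a step of 39.2 to 486 cells in the 15-week mice. The step was 209, 603 and 18.6 cells in KPTC-Neo replicates 1, 2 and 3, and 142, 74.3 and 713 cells in KPTC-Setd2 replicates 1, 2 and 3. The lowest band stood at about 2 to 27 steps, and no label says whether a step is 1 read. The smallest listed size of a mouse ran from 502.9 to 1440.3 cells, so tumours below 1500 cells are listed in some mice more fully than in others. All measures therefore use tumours of at least 1500 cells, which is 2.10 to 80.6 steps. This leaves 15202 Inert and 3500 Setd2 tumours at 15 weeks, and 4993 and 28339 at 9 weeks. Per mouse the numbers were 228 to 3744 Inert and 69 to 834 Setd2 tumours at 15 weeks. At 9 weeks they were 761, 3833 and 399 Inert tumours and 3272, 17820 and 7247 Setd2 tumours, in replicate order.

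Some 9-week libraries shared barcodes with other libraries. A tumour was called matched where its target and barcode also stood in another mouse of the series at a size at least 10 times its own. Matched tumours made up 42.7%, 5.06% and 28.1% of those in KPTC-Neo replicates 1, 2 and 3, and 33.1%, 5.37% and 8.21% in KPTC-Setd2 replicates 1, 2 and 3. At 15 weeks they made up 3.39% to 8.82% of the Inert and 9.44% to 18.3% of the Setd2 tumours. Of the 325 matched tumours of KPTC-Neo replicate 1, 205 had their largest match in 1 mouse, KLTC-Neo replicate 5, which is of another genotype. Of the 1083 of KPTC-Setd2 replicate 1, 472 had theirs in KPTC-Setd2 replicate 2. Results are also given without the matched tumours, and with only the 9-week mice in which at most 10% were matched. No such limit was set on the 15-week mice.

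**Figure D1:**
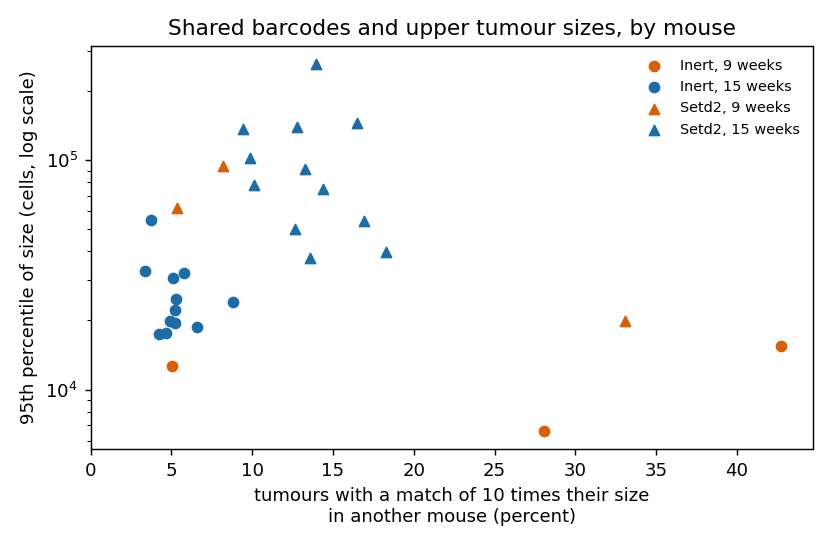
Percent of the tumours of at least 1500 cells that were matched at 10 times their size in another mouse (horizontal axis) against the 95th percentile of size in cells (vertical axis, log scale), each mouse and vector being a point. KPTC-Neo replicates 1 and 3 and KPTC-Setd2 replicate 1 lie at 42.7%, 28.1% and 33.1%, and every other point lies at 18.3% or less.

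The Inert comparison asks how p53-deficient tumours without a further targeted gene differ in size between 9 and 15 weeks. Among tumours of at least 1500 cells the median size was alike at both times, and tumours of the upper tail were larger at 15 weeks. The median size was 2740, 3069 and 2401 cells in the 3 mice at 9 weeks, and at 15 weeks ranged from 2339 to 3087 cells with a median mouse at 2606. The 9-week medians all lay within the 15-week range, and the log2 difference, 15 minus 9 weeks, was −0.03 ± 0.11 (SE, 12 against 3 mice). A median depends on the minimum size, and with a minimum of 5000 cells the difference was 0.45 (adjusted p 0.0264, two-sided exact permutation test).

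The 95th percentile of Inert tumours was 15491, 12723 and 6610 cells at 9 weeks. At 15 weeks it ranged from 17470 to 54544 cells, with a median mouse at 23079. All 12 mice at 15 weeks lay above the highest mouse at 9 weeks. The geometric means, 24716 and 10922 cells, differed 2.26-fold (log2 1.18 ± 0.40 SE, adjusted p 0.0176, two-sided exact permutation test).

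The 99th percentile of Inert tumours was 32219, 86109 and 10419 cells at 9 weeks. At 15 weeks it ranged from 75469 to 452304 cells, with a median mouse at 184879. Of the 12 mice at 15 weeks, 11 lay above every mouse at 9 weeks, and the other, replicate 2 with 228 tumours, lay below KPTC-Neo replicate 2. The geometric means, 183260 and 30690 cells, differed 5.97-fold (log2 2.58 ± 0.91 SE, adjusted p 0.0264, exact permutation test).

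How far the tail reaches beyond the typical tumour of the same mouse was measured as the 99th percentile over the median. This ratio was 11.8, 28.1 and 4.34 at 9 weeks and 30.1 to 186 at 15 weeks, with a median mouse at 65.8. The groups did not overlap, and the ratio was 6.12-fold higher at 15 weeks (log2 2.61 ± 0.81 SE, adjusted p 0.0176, exact permutation test). The log-normal mean size, which weighs the spread of log sizes, was 4366, 4623 and 2926 cells at 9 weeks and 4711 to 8359 cells at 15 weeks. The 15-week mice again all lay higher (1.58-fold, log2 0.66 ± 0.22 SE, adjusted p 0.0176, exact permutation test).

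**Figure D2:**
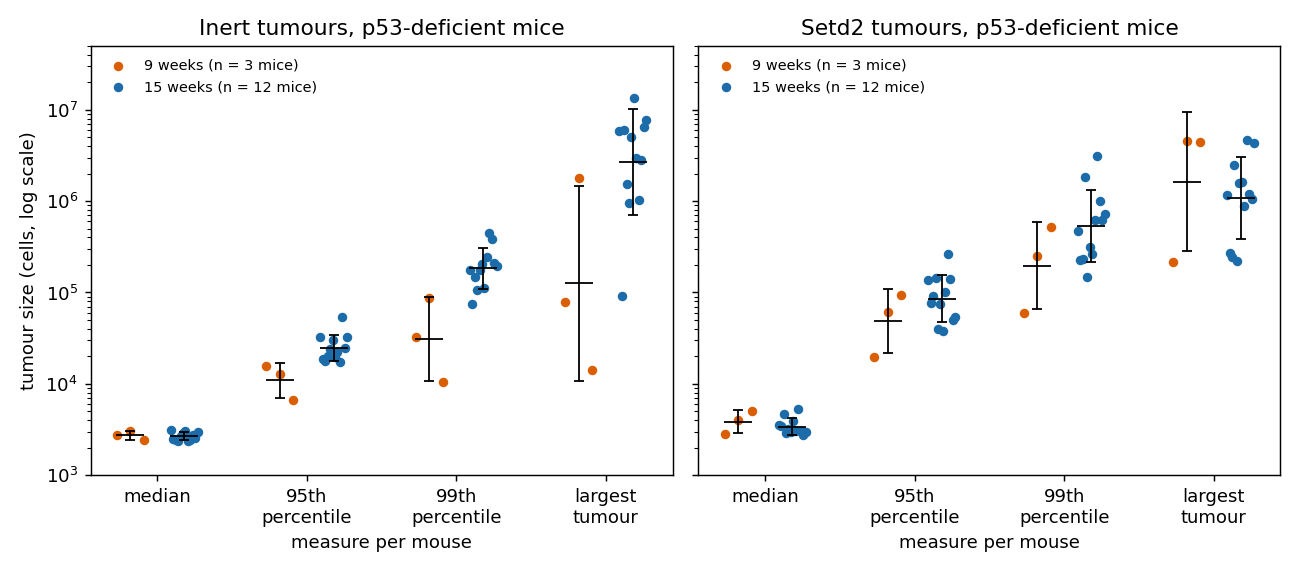
Median, 95th percentile, 99th percentile and largest size of the tumours of at least 1500 cells (horizontal axis), in cells on a log scale (vertical axis), for Inert (left) and Setd2 (right) tumours at 9 weeks (3 mice each) and 15 weeks (12 mice). Each mouse is a point, and bars give the geometric mean and SD of log values. The Inert 95th percentiles at 15 weeks all lie above those at 9 weeks, while the Setd2 ranges overlap in each measure.

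The largest Inert tumour of a mouse had 79473, 1784540 and 14158 cells at 9 weeks. At 15 weeks it ranged from 91404 to 13548800 cells, with a median mouse at 4012270. The ranges overlapped, with 8 of 12 mice above the highest 9-week mouse, and the difference did not pass after adjustment (21.3-fold, log2 4.41 ± 2.12 SE, adjusted p 0.0844, exact permutation test). Without KPTC-Neo replicate 3 it was log2 2.83, without replicate 2 it was 6.32, and against replicate 2 alone it was 0.59. A mouse with more tumours samples its tail more deeply, so tumours were also compared at an equal rank, the largest of about every 228. These had 54381, 157460 and 11795 cells at 9 weeks and 91404 to 1405610 cells at 15 weeks. Only replicate 2 of the 15-week mice lay below the highest 9-week mouse, and the difference passed (log2 3.39 ± 1.13 SE, adjusted p 0.0211, exact permutation test).

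The share of tumours beyond a fixed size gives the same tail in another unit. Tumours of at least 10000 cells made up 8.54%, 6.57% and 1.25% of the Inert tumours at 9 weeks, against 8.01% to 19.7% at 15 weeks with a median mouse at 12.3%. Tumours of at least 100000 cells numbered 0, 32 and 0 at 9 weeks and 0 to 66 at 15 weeks, where only replicate 2 of the 12 mice had none. Those of at least 1000000 cells numbered 0, 1 and 0 at 9 weeks and 0 to 8 at 15 weeks. The early large tumours were thus all in KPTC-Neo replicate 2, which also had the most tumours of its group. The top 1% of Inert tumours held 11.3%, 31.5% and 4.12% of the cells at 9 weeks, and 12.7% to 77.5% at 15 weeks with a median mouse at 56.0%. In replicate 3 at 15 weeks a single tumour of 6009050 cells held 70.2% of the cells.

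**Figure D3:**
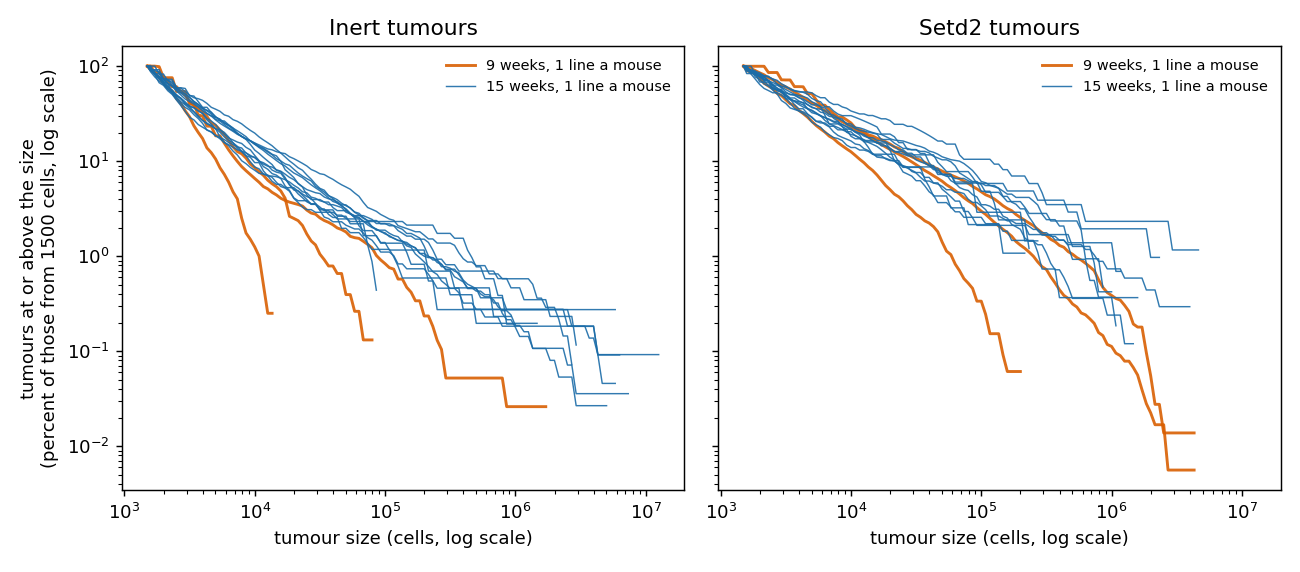
Percent of the tumours of a mouse at or above each size (vertical axis, log scale) by size in cells (horizontal axis, log scale), for Inert (left) and Setd2 (right) tumours, with a line for each mouse starting at 1500 cells. At 10000 cells the Inert lines stand at 1.25% to 8.54% at 9 weeks and 8.01% to 19.7% at 15 weeks, and the Setd2 lines at 12.6% to 25.2% and 13.9% to 33.7%.

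In total 4 of 6 Inert measures passed the test as higher at 15 weeks and 0 as lower, over a family of 12 tests. Of the 6 estimates 5 were above 0, and 5 had an unadjusted p under 0.05 by exact permutation test. The smallest p that 12 against 3 mice can give is 0.0044. With any 1 of the 3 KPTC-Neo mice left out the smallest is 0.022 and none of the 4 passed, at adjusted p 0.0527 to 0.132 by the same exact test. KPTC-Neo replicate 3, the mouse with the smallest step and, among the KPTC-Neo mice, the fewest tumours, was the lowest in each of these measures. Without it the 95th percentile differed by log2 0.82, the 99th by 1.80, the ratio by 1.92 and the log-normal mean by 0.45. The part of depth in these results was not tested.

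The choice of tumours also moved these values. With every listed tumour kept, so that mice differ in their lower limit, the 4 rises lost the threshold. The 95th percentile then differed by log2 0.40, the 99th by 0.94, the ratio by 1.24 and the log-normal mean by 0.06 (adjusted p 0.645, 0.475, 0.158 and 0.941, exact permutation test). At a minimum of 5000 cells all 4 passed, at 2.20, 3.70, 3.25 and 1.26. Without matched tumours all 4 passed too, at 1.45, 2.68, 2.64 and 0.77. With KPTC-Neo replicate 2, the only 9-week Inert mouse with few matched tumours, the values were 0.96, 1.09, 1.30 and 0.41, and no test with 1 mouse can pass (smallest exact p 0.154).

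The 9-week mice all have names with the prefix IW, as do 7 of the 12 mice at 15 weeks, and what it stands for is not explained in the labels. Among mice with the prefix, the 95th percentile differed by log2 1.30, the 99th by 2.94, the ratio by 2.94 and the log-normal mean by 0.73. Each had an adjusted p of 0.05, which does not pass, by an exact permutation test whose smallest p is 0.0167. The other 5 mice at 15 weeks have no 9-week mice beside them. The pool also held an sgRNA against p53, whose gene is already deleted in this genotype. With its tumours in place of the Inert ones at 15 weeks, the 4 differences were 0.95, 1.64, 1.67 and 0.51 and did not pass (adjusted p 0.145 for each, exact permutation test).

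The Setd2 comparison asks the same of p53-deficient tumours whose vector also targets this chromatin regulator. None of the 6 measures passed the test, and 4 of the 6 estimates were above 0. The median size was 2844, 4018 and 5035 cells at 9 weeks and 2737 to 5347 cells at 15 weeks, with a median mouse at 3123 (log2 −0.18 ± 0.25 SE, 12 against 3 mice). The log-normal mean was 5181, 10675 and 13985 cells at 9 weeks and 8113 to 41241 cells at 15 weeks (log2 0.49 ± 0.47 SE). In both measures the ranges overlapped, and KPTC-Setd2 replicate 1, which had the most matched tumours of the 3, was the lowest at 9 weeks.

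The 95th percentile of Setd2 tumours was 19895, 61760 and 93941 cells at 9 weeks. At 15 weeks it ranged from 37598 to 261497 cells with a median mouse at 84454. Of the 12 mice, 5 lay above the highest 9-week mouse, and the difference was 1.76-fold (log2 0.82 ± 0.71 SE, adjusted p 0.303, exact permutation test).

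The 99th percentile of Setd2 tumours was 59449, 248808 and 517782 cells at 9 weeks. At 15 weeks it ranged from 147797 to 3125220 cells, with a median mouse at 546723. The ranges overlapped, with 6 of 12 mice above the highest 9-week mouse (2.69-fold, log2 1.43 ± 0.99 SE, adjusted p 0.203, exact permutation test). In pool replicates 2, 3, 5 and 9, with only 69, 83, 93 and 86 Setd2 tumours, this percentile lies between the 2 largest tumours of the mouse. The highest value, 3125220 cells, is that of replicate 9.

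In Setd2 tumours the 99th percentile over the median was 20.9, 61.9 and 103 at 9 weeks and 46.3 to 639 at 15 weeks. Of the 12 mice at 15 weeks, 8 lay above every 9-week mouse (3.05-fold, log2 1.61 ± 0.78 SE, adjusted p 0.141, exact permutation test). The largest Setd2 tumour had 215311, 4529670 and 4416990 cells at 9 weeks and 219216 to 4656350 cells at 15 weeks, with a median mouse at 1176870. Only 1 mouse at 15 weeks lay above the highest at 9 weeks, and the difference was log2 −0.60 ± 1.52 (SE, adjusted p 0.724, exact permutation test).

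The 9-week mice held far more Setd2 tumours than the pool mice did, and at an equal rank, the largest of about every 69, the sign of this difference turned. These tumours had 49698, 183017 and 364888 cells at 9 weeks and 219216 to 4656350 cells at 15 weeks. At 15 weeks 7 of the 12 mice lay above the highest 9-week mouse, and the difference did not pass (log2 1.91 ± 0.94 SE, adjusted p 0.105, exact permutation test).

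Setd2 tumours of at least 10000 cells made up 12.6%, 23.1% and 25.2% of those at 9 weeks and 13.9% to 33.7% at 15 weeks, with a median mouse at 21.5%. Those of at least 100000 cells made up 0.336%, 2.97% and 4.76% at 9 weeks and 2.11% to 10.5% at 15 weeks, with a median mouse at 4.15%. Replicates 2 and 3 at 9 weeks lay within the 15-week range for both sizes and replicate 1 below it. The top 1% of Setd2 tumours held 15.3%, 32.6% and 38.9% of the cells at 9 weeks, and at 15 weeks 34.2% in the median mouse and at most 64.2%.

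In total 0 of 6 Setd2 measures passed by exact permutation test, and 0 had an unadjusted p under 0.05. Without replicate 1 of the 9-week mice the 95th percentile differed by log2 0.17, the 99th by 0.56, the log-normal mean by 0.08 and the largest tumour by −2.06. Without matched tumours the same 4 measures differed by 0.84, 1.36, 0.58 and −0.60, and none passed. With every listed tumour kept, the signs of the 95th percentile (−0.64) and the log-normal mean (−0.76) turned.

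Across the distribution of tumours of at least 1500 cells, the difference between the times grew from the median to the 99th percentile for both vectors. For Inert tumours it was log2 0.31 ± 0.18 at the 75th and 0.87 ± 0.27 at the 90th percentile (SE, 12 against 3 mice, no test made). For Setd2 tumours it was 0.09 ± 0.33 and 0.61 ± 0.52. The Setd2 values were the lower of the pair at each percentile, with SEs that overlapped. Both patterns depend on the minimum size. With a minimum of 5000 cells the Setd2 differences were 0.51, 1.41 and 1.21 at the median, 95th and 99th percentile. The Inert ones were 0.45, 2.20 and 3.70. Setd2 then did not rise from the 95th to the 99th percentile, and was not the lower at the median.

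**Figure D4:**
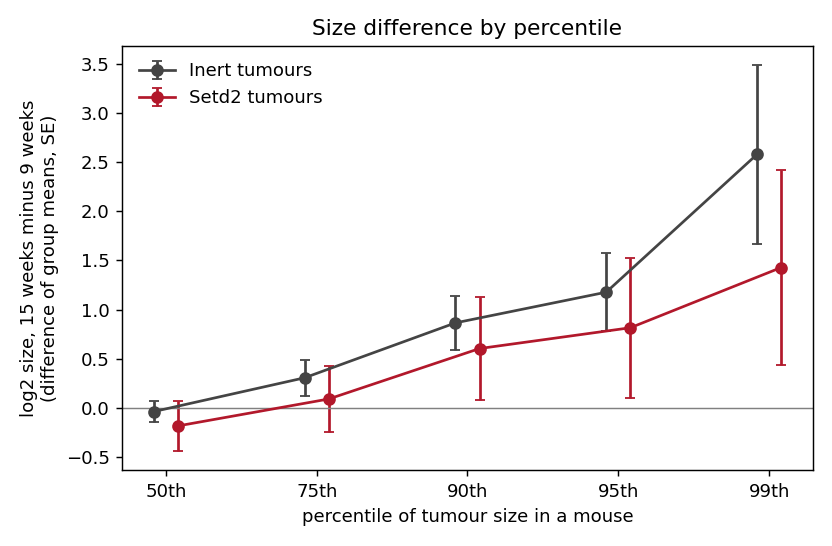
Log2 size at 15 weeks minus 9 weeks (vertical axis, difference of group means with SE) at the 50th, 75th, 90th, 95th and 99th percentile of the tumours of at least 1500 cells (horizontal axis), for Inert and Setd2 tumours. The Inert values are −0.03, 0.31, 0.87, 1.18 and 2.58, and the Setd2 values −0.18, 0.09, 0.61, 0.82 and 1.43.

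That Inert measures passed and Setd2 measures did not is no test of a difference between the vectors, which was made on the ratio of Setd2 to Inert. At 9 weeks, between mice, the 95th percentile of Setd2 tumours was 4.46-fold that of Inert tumours (log2 2.16 ± 0.77 SE, 3 against 3 mice). At 15 weeks, within mice, it was 3.47-fold (log2 1.80 ± 0.96 SD, above 0 in 12 of 12 mice). The change in the log2 ratio was −0.36 ± 0.81 (SE, adjusted p 0.728, two-sided permutation test). The vector labels were permuted within each time, over every arrangement, after removal of the mean vector effect. That effect was estimated from the same values, so the p-values of this test are approximate.

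For the 99th percentile the Setd2 to Inert ratio was 6.42-fold at 9 weeks and 2.90-fold at 15 weeks. At 15 weeks 11 of 12 mice were above 0 on the log2 scale (change −1.15 ± 1.31 SE, adjusted p 0.728, same permutation test). For the log-normal mean the ratio was 2.36-fold and 2.10-fold (change −0.16 ± 0.52 SE, adjusted p 0.728, same permutation test). In total 0 of 3 changes passed and 0 had an unadjusted p under 0.05 by this permutation test. The 99th percentile change was −2.01 without KPTC-Setd2 replicate 1, −1.89 without KPTC-Neo replicate 2, −0.37 without KPTC-Neo replicate 3 and −0.45 without KPTC-Setd2 replicate 3. Without KPTC-Neo replicate 3 or KPTC-Setd2 replicate 3 the sign of 2 of the 3 changes turned, to 0.00095 and 0.11 for the 95th percentile and to 0.04 and 0.14 for the log-normal mean.

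Among the 12 mice at 15 weeks, the tails of both vectors varied more than their medians. The SD of the log2 99th percentile was 0.74 for Inert and 1.31 for Setd2, and that of the log2 median size was 0.15 and 0.30. Over 6 relations computed, the number of all listed tumours of a mouse (3553 to 30646) went with the Inert 95th percentile by rank but not by Pearson's r. This number counts tumours down to the lower limit of each mouse, 509.6 to 982.2 cells. It includes the Inert tumours themselves, which were 26.7% to 32.7% of it. Pearson's r was 0.63 (permutation p 0.0283, adjusted p 0.170) and Spearman's rho 0.77 (permutation p 0.00514, adjusted p 0.0308). Without the 2 mice farthest from the median number r was 0.69, and among the 7 mice of prefix IW r was 0.53 and rho 0.82 (exact permutation p 0.218 and 0.0341, not adjusted).

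The tails of both vectors in the same mouse were also set against each other. The 95th percentiles of Inert and Setd2 tumours had r 0.03 and rho −0.10 (permutation p 0.928 and 0.766, adjusted p 0.928 and 0.920). Their 99th percentiles had r 0.54 and rho 0.53 (permutation p 0.0692 and 0.0781, adjusted p 0.208 and 0.234), with r 0.15 without the 2 mice farthest from the median Inert value and r 0.88 and rho 0.75 among the 7 mice of prefix IW (exact permutation p 0.0127 and 0.0663, not adjusted). The other 3 relations, of tumour number with the Inert 99th and the Setd2 95th and 99th percentiles, had r of 0.38, −0.04 and 0.10 and did not pass (permutation, adjusted p 0.432, 0.928 and 0.928). Their rho was 0.34, −0.03 and 0.34 (permutation, adjusted p 0.416, 0.923 and 0.416).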

How the data were processed

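Barcodes were amplified from DNA of whole lungs and sequenced, with 1 library a mouse, per the labels. The deposited table gives, in the authors' own unit, the absolute number of cells per tumour. The standard behind this scale, the grouping of reads and any filter are each not given in the sources used here, and all listed sizes exceed 500 cells. Groups were taken from the genotype labels. Read numbers are unknown, so errors and p-values rest on the spread between these mice. Per mouse and vector, percentiles (linear interpolation), the largest size and the log-normal mean (the exponential of the mean natural log size added to 0.5 times the variance) were taken over tumours of at least 1500 cells, the highest of the smallest listed sizes of the 18 mice rounded up to the next 100. Values were compared as log2 with two-sided exact permutation tests of mouse labels, adjusted by Benjamini-Hochberg over 12 tests, threshold 0.05. The change of the Setd2 to Inert ratio was tested by permuting vector labels within each time after removal of the mean vector effect, adjusted over 3 tests. Other settings tried were every listed tumour, a minimum of 5000 cells, leaving out the largest, matched or recurrent tumours, mice of 1 ID prefix, each mouse left out, group medians, adjustment within a vector, equal ranks and p53 sgRNA tumours. The members, measures and named tumours (the largest of each vector in each group) were chosen with earlier results of these data known. Python 3.11.15, numpy 2.4.6, pandas 2.3.3 and scipy 1.17.1 were used, and the procedure was tested on simulated data.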

Additional observations from a re-analysis of the deposited data

How the results depend on the processing

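Values are log2 differences, 15 minus 9 weeks, and an order of 4 Inert values is always the 95th percentile, 99th percentile, log-normal mean and 99th percentile over the median. Of 149 values under other settings, 119 kept their direction and their side of the threshold, 20 lost the threshold, 2 gained it with the same sign and 8 changed sign. With all listed tumours the Inert values lost it at 0.40, 0.94, 0.061 and 1.24, and Setd2 turned to −0.64 in the 95th percentile and −0.76 in the log-normal mean. With a minimum of 5000 cells the medians turned to 0.45 (Inert, now past the threshold) and 0.51 (Setd2, not past it). Without matched tumours the Inert median turned to 0.041, and to 0.037 with recurrent barcodes also left out. In mice of prefix IW the Inert values were 1.30, 2.94, 0.73 and 2.94, not past the threshold, and the largest Setd2 tumour turned to 0.12. As a difference of group medians they were 0.86, 2.52, 0.47 and 2.48, with p53 sgRNA tumours 0.95, 1.64, 0.51 and 1.67, and with only 9-week mice of few matched tumours 0.96, 1.09, 0.41 and 1.30, none past the threshold. The largest Inert tumour gained it when adjusted within the vector (4.41) and at equal rank (3.39), where the largest Setd2 tumour turned to 1.91. With 1 mouse left out in turn, the ranges were 0.82 to 1.43, 1.80 to 3.32, 0.45 to 0.78 and 1.92 to 3.27 for the 4 Inert values, which lost the threshold without any 1 KPTC-Neo mouse. They were 2.83 to 6.32 for the largest Inert tumour, −0.13 to 0.052 for the Inert median, −0.40 to 0.011 for the Setd2 median and −2.06 to 0.14 for the largest Setd2 tumour. The change of the Setd2 to Inert ratio ran from −1.01 to 0.11 for the 95th percentile, from −2.01 to −0.37 for the 99th and from −0.58 to 0.14 for the log-normal mean. The smaller number of mice raises the smallest possible p in these subsets; other causes were not tested. The leave-outs of recurrent barcodes and of 9-week mice with many matched tumours were chosen after seeing the data. Between the times, no paired analysis was possible because no mouse was measured at both and the labels give no shared replicate numbers. Setd2 and Inert tumours at 15 weeks were compared within mice. The minimum size and the steps limit what the low end of each distribution can show.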

Other observations

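Some barcodes recurred in many pool mice. Of 6981 distinct Setd2 barcodes listed in the 12 mice at 15 weeks, 652 were in 2 or more of them (9.34%), 39 in 6 or more and 1 in all 12. Of 32971 Inert barcodes, 4259 were in 2 or more (12.9%), 126 in 6 or more and 0 in all 12. The Setd2 barcode found in all 12 is shown because it was listed in 1 of the 9-week KPTC-Setd2 mice as well.
Setd2, all pool mice: AAtgaggTTctaacAAcggct
Its size in the pool mice ranged from 9348 to 89410 cells, with a median of 26528. It was chosen after its values were seen. In each 9-week mouse, 10.1% to 11.8% of the Inert and 5.38% to 8.01% of the Setd2 tumours of at least 1500 cells had a barcode also listed for that target, from 1500 cells, in a pool mouse at 15 weeks. Leaving out barcodes listed in 10 or more mice of the series at 10% of their largest size or more gave a difference of log2 1.22 in the 95th percentile of Inert tumours and 0.87 in that of Setd2 tumours. This filter was chosen after the data were seen.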
